A study of Mus musculus with 5 samples.

Results

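Genes of the sterol and fatty acid programme run by the sterol regulatory element-binding proteins (SREBPs) were followed here in dendritic cells of the mouse thymus. The members were listed by gene symbol for their known roles, with earlier results of these data known but with no measured value in the rule. They are 30 of the 18051 genes in the count table, made up of 5 regulators, 19 genes of the sterol branch and 6 genes of the fatty acid branch. Each of the 30 had a row and passed the filter on low counts. Untreated C57BL/6J mice gave 2 libraries, and C57BL/6J mice taken 4 days after total body irradiation (TBI) gave 3. All animals were 6 to 8 weeks old, thymi were pooled, and the sort kept cells that carried CD11c, CD45 and MHC class II at their surface. The libraries were made with a kit for low RNA input. The radiation dose is not given in the sources used here, and no label says that replicates came from separate pools, so p-values measure the spread between these libraries, which may be technical.

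SREBPs are transcription factors made as membrane proteins of the endoplasmic reticulum. SCAP escorts them to the Golgi apparatus for cleavage when sterols are scarce, and INSIG proteins hold the SCAP complex back when sterols are plentiful. The product of Srebf2 acts mainly on genes of cholesterol synthesis and uptake, and the products of Srebf1 mainly on genes of fatty acid synthesis. In macrophages and dendritic cells the same pathway supplies membrane for secretion, division and phagocytosis, and its activity is tied to inflammatory signalling.

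Libraries held 7227000 to 8428589 counts, and 1 count equalled 0.123 to 0.145 CPM (a count scaled to library size, with libraries adjusted by the TMM method), so a floor of 3 counts was 0.370 to 0.434 CPM. The chi-square per gene, near 1 for counting error alone, was 4.89 for the untreated pair. It was 9.80 to 27.6 for pairs of TBI libraries and 115 to 129 for pairs from different groups, so every pair differed by more than sampling noise. TBI replicate 1 stood apart on the second principal component (14.2% of the variance), with a score of -44.3 against 29.0 and 21.6 for the other TBI libraries. Transcripts that define dendritic cells were counted in every library, but 7 of 9 core dendritic cell markers fell, among them Flt3. All 8 type 1 and all 8 plasmacytoid dendritic cell markers fell as well. Of 6 tested type 2 dendritic cell markers 4 rose and none fell, of 7 mature dendritic cell markers 2 rose and 3 fell, and of 10 T cell markers 2 rose and 4 fell. Summed T cell markers went from between 2066 and 2277 CPM to between 1486 and 1746 CPM. Cd3d, Cd3e and Lck were among the 4 T cell markers that did not pass. Of 15 macrophage markers 14 rose, and their summed level went from between 3882 and 4707 CPM to between 38468 and 45893 CPM. Summed B cell markers went from between 68.5 and 91.1 CPM to between 244 and 381 CPM, with Pax5 at 0 counts in both untreated libraries. Stromal, endothelial and epithelial markers summed to 79.8 to 84.0 CPM before and 41.2 to 53.3 CPM after TBI, with Pdgfra at 0 in every library. Of the 7 tested, Cdh5, Kdr and Epcam fell and the collagen genes Col1a1 (0 and 1 counts before, 27, 21 and 44 after) and Col3a1 (0 and 1 before, 165, 82 and 151 after) rose. The part of these cell types in the changes below was not tested. In bulk RNA, fewer cells of a type and less RNA per cell cannot be told apart.

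Of 19 sterol genes 4 fell after TBI (Hmgcs1, Fdps, Sqle and Cyp51), 2 rose (Mvd and Ebp) and 13 did not pass the test. Srebf2 and Scap fell, Srebf1 did not pass, and Acly, which makes the building block of both branches, rose. Leaving out either untreated library left 1 sterol gene called lower (Sqle). By edgeR's quasi-likelihood test with Benjamini-Hochberg adjustment over 12046 genes at 0.05, 9 of the 30 members passed, 3 higher and 6 lower, where 23.1% of all genes tested passed. Members called lower made up 20% of the 30, against 9.79% of all genes, and members called higher 10%, against 13.3%. Leaving out either untreated library gave 2 lower and 0 higher members. Leaving out TBI replicate 2 gave 3 lower and 0 higher, and leaving out TBI replicate 1 gave 12 lower and 3 higher. With library size alone there were 12 lower and 0 higher. Calls over all 12046 genes changed as well, from 1179 lower to 1780 without TBI replicate 1 and 2129 with library size alone. The changes in member counts thus came with changes over the whole table. The median log2 fold change (TBI minus untreated) was -0.36 over the 30 members and -0.0054 over all genes. By branch it was -0.25 for the regulators, -0.51 for the sterol genes and 0.30 for the fatty acid genes. Groups did not overlap for 19 members (63.3%), against 56.1% of all genes, 15 of them with TBI below (28.3% of all genes) and 4 with TBI above (27.8%). The plot of levels by library shows every member, and the plot of changes follows the pathway order.

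**Figure D1:**
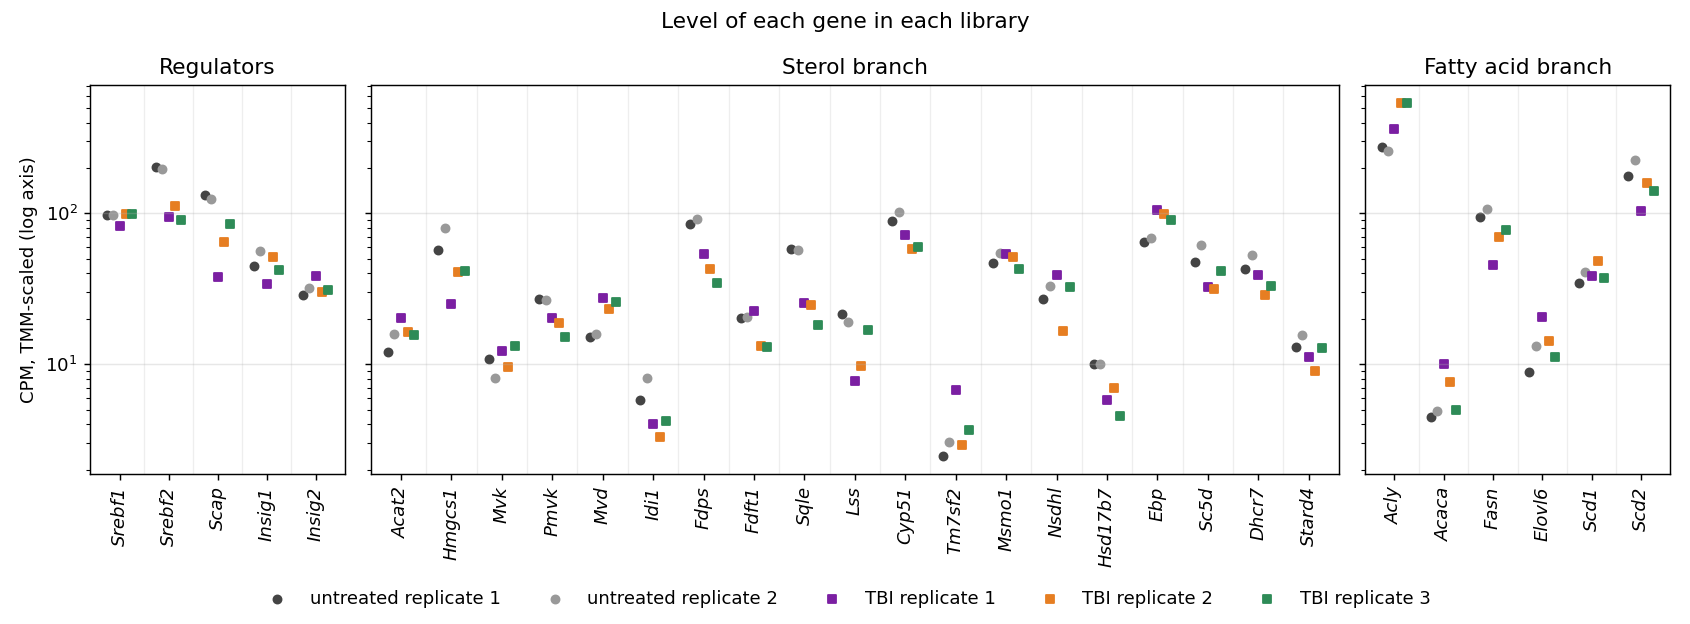
CPM of each of the 30 genes (log axis) in the 2 untreated libraries (circles) and the 3 TBI libraries (squares), in 3 panels for the regulators, the sterol branch and the fatty acid branch. Srebf2, Scap, Fdps and Sqle show squares well below circles, Mvd, Ebp and Acly show squares above circles, and Srebf1 shows both at about the same height.

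**Figure D2:**
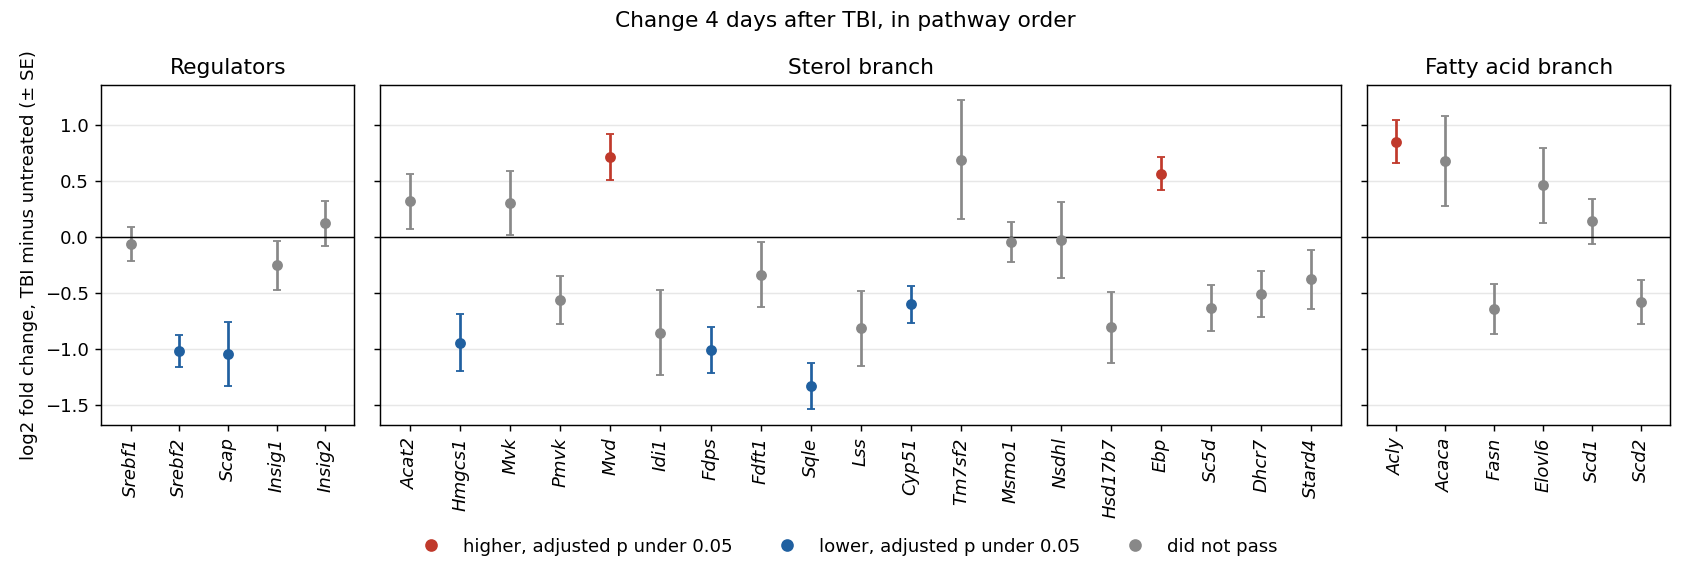
Log2 fold change (TBI minus untreated) of each gene with its standard error from the edgeR fit, in pathway order, coloured by whether the adjusted p was under 0.05. The 6 genes called lower run from -1.33 (Sqle) to -0.60 (Cyp51), and the 3 called higher from 0.56 (Ebp) to 0.85 (Acly).

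Promoter stretches of 5 of the 7 called genes with a matched promoter are shown, with Fasn, which did not pass, as the fatty acid gene that holds CCAAT, because SREBPs are known to act from sterol regulatory elements beside bound NF-Y, a factor that recognises CCAAT. RefSeq promoters (GRCm38.p6) were matched for 24 of the 30 members, not for Fdps, Fdft1, Sqle, Stard4, Scd1 and Scd2. The 250 bases before each start were searched on both strands for CCAAT, for the sterol element TCACNCCAC, for its first letters TCACNCCA (which every TCACNCCAC also matches, and which was added after promoter sequences had been read) and for the palindromic E-box CACGTG. A gene with several starts counted if any window held the letters. Each stretch in the lines that follow is written 5′ to 3′ along the gene, and its capitals mark the NF-Y letters CCAAT. On the other strand these letters read ATTGG. Longer capitals mark the sterol element or its first letters. Fasn holds an overlap of both forms, and the Acly stretch holds none of the motifs.
Srebf2 (chr15:82147093-82147152, plus strand): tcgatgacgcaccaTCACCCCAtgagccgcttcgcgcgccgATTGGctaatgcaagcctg
Hmgcs1 (chr13:119690102-119690322, plus strand): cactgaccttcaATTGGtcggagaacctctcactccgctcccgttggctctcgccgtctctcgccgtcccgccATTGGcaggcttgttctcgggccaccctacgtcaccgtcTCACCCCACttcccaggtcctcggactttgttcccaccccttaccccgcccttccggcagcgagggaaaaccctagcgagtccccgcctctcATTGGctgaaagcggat
Mvd (chr8:122443433-122443494, minus strand): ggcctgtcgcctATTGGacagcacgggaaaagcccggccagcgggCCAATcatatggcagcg
Ebp (chrX:8193551-8193694, minus strand): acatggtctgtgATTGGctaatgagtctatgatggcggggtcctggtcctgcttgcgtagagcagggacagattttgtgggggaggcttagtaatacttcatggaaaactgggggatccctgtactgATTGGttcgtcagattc
Fasn (chr11:120824590-120824649, minus strand): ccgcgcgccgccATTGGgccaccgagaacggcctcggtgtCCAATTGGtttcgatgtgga
Acly (chr11:100528001-100528120, minus strand): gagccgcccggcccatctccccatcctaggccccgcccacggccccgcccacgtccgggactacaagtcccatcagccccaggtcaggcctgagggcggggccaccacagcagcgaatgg

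CCAAT was in the promoters of 14 of the 15 sterol genes that matched, of 4 of the 5 regulators and of 1 (Fasn) of the 4 fatty acid genes. It was in 37.5% of 27025 genes in the RefSeq table and in 40.4% of the 9276 tested genes found there. A gene with more windows has more places for a match. Of all 32851 windows, 33.85% held CCAAT. By window, CCAAT was in 14 of 18 for the sterol genes, 5 of 10 for the regulators and 1 of 4 for the fatty acid genes. It was present both in genes that fell (Srebf2, Hmgcs1 and Cyp51) and in genes that rose (Mvd and Ebp), and it was not in the windows of Scap or Acly. The only window matched for Acaca ended at chr11:84195437, inside the gene (84129672 to 84401651, plus strand). The sequence before the first base of Acaca was therefore not searched, and its lack of CCAAT covers the inner window alone. TCACNCCAC was found in 1 member, Hmgcs1, 137 to 129 bases before its start, against 1.22% of all genes. TCACNCCA was in 3 members (Hmgcs1, Srebf2 and Msmo1), against 4.20% of all genes, and in Srebf2 it lay 162 to 155 bases before the start. CACGTG was in 5 of the 24 members, against 6.86% of all genes in the RefSeq table and 9.84% of the tested genes found there. These matches describe letters in a window and say nothing of binding.

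Among the regulators, Srebf2 fell and Srebf1 did not pass. Srebf2 (chr15:82147181-82205379, GRCm38) stood at 204 and 198 CPM in the untreated libraries and at 94.2, 113 and 91.2 CPM in the TBI libraries. The groups were far apart and each was tight, giving a 2.02-fold lower level (log2 fold change -1.02 ± 0.14, SE; edgeR adjusted p = 0.00131). Srebf1 stood at 97.7 and 98.1 CPM before and 81.9, 99.3 and 99.8 CPM after TBI. Its groups overlapped (-0.064 ± 0.15; adjusted p = 0.795), and without TBI replicate 1, the lowest library, its log2 fold change was 0.023. Per kilobase of exon (RPKM), untreated cells held more Srebf2 than Srebf1, 28.0 against 17.4, and TBI cells 13.8 against 16.6. Counts of the gene do not separate the Srebf1 transcripts that start at different exons.

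Scap (chr9:110333288-110384950), the escort protein, fell from 132 and 125 CPM to 38.0, 64.2 and 84.8 CPM (-1.05 ± 0.28; edgeR adjusted p = 0.0296). All TBI libraries lay below both untreated ones, but they spread over more than the width of the gap, with replicate 1 lowest. Scap lost its call without untreated replicate 1 (adjusted p = 0.137), untreated replicate 2 (0.109) or TBI replicate 2 (0.0884). Insig1, a retention protein that is itself a classical SREBP target, had 45.0 and 56.0 CPM before and 33.8, 51.4 and 41.9 CPM after (-0.25 ± 0.22; adjusted p = 0.457). Insig2, its paralog, which depends less on SREBP, had 28.7 and 32.2 CPM before and 38.3, 30.01 and 31.2 CPM after (0.12 ± 0.20; adjusted p = 0.709). Both INSIG genes had overlapping groups. The summed CPM of the 5 regulators was 508 and 509 before TBI and 286, 358 and 349 after.

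The ratio of 2 paralogs within a library does not depend on how libraries are scaled. The log2 ratio of Srebf1 to Srebf2 counts (0.5 added to each) was -1.06 and -1.01 in untreated libraries and -0.20, -0.18 and 0.13 in TBI libraries, a difference of 0.95. All 3 TBI libraries were above both untreated ones, and the two-sided exact permutation p was 0.1, the smallest that 2 against 3 libraries allow (0.15 after Benjamini-Hochberg adjustment over 3 ratios). For Scd1 to Scd2 the ratio was -2.36 and -2.46 before and -1.44, -1.70 and -1.92 after, a difference of 0.73 with no overlap (exact p = 0.1, adjusted 0.15). For Insig1 to Insig2 it was 0.65 and 0.80 before and -0.18, 0.78 and 0.42 after, with overlap, a difference of -0.38 (exact p = 0.4, adjusted 0.4).

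**Figure D3:**
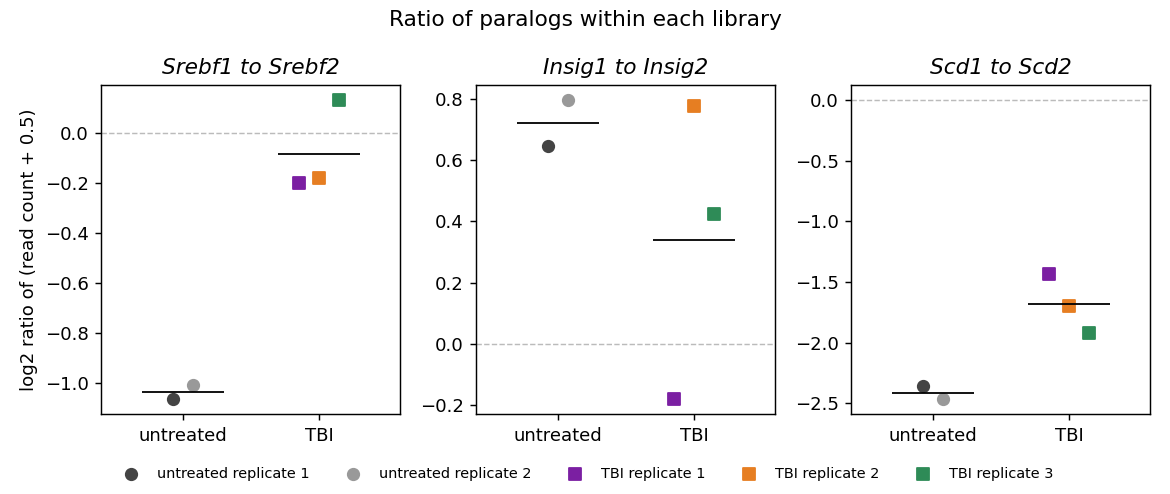
Log2 ratio of read counts (0.5 added) of Srebf1 to Srebf2, Insig1 to Insig2 and Scd1 to Scd2 in each library, with the group mean as a line. The Srebf and Scd ratios were higher in all 3 TBI libraries than in both untreated ones, and the second overlapped between groups.

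The sterol branch begins with acetyl-CoA units and the mevalonate pathway. Acat2, the cytosolic thiolase of the first condensation, had 12.1 and 15.9 CPM before and 20.2, 16.46 and 15.7 CPM after TBI, with overlap (adjusted p = 0.408). Hmgcs1, the HMG-CoA synthase whose promoter holds the sterol element printed above, fell from 57.4 and 80.3 CPM to 25.1, 40.6 and 41.5 CPM (-0.94 ± 0.26; edgeR adjusted p = 0.0304). The untreated libraries differed from each other by more than the TBI replicates 2 and 3 did, and replicate 1 was lowest. Hmgcs1 was not called without untreated replicate 1 (adjusted p = 0.0567), untreated replicate 2 (0.30), TBI replicate 2 (0.0607) or TBI replicate 3 (0.0522).

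The kinases and the decarboxylase that turn mevalonate into an isoprenoid unit follow. Mvk, mevalonate kinase, had 8.09 to 10.9 CPM before and 9.62 to 13.2 CPM after (adjusted p = 0.492). Pmvk, phosphomevalonate kinase, had 26.9 and 26.7 CPM before and 20.2, 18.7 and 15.3 CPM after, without overlap but short of the threshold (-0.57 ± 0.21; adjusted p = 0.0948). Mvd, the decarboxylase that follows, rose from 15.18 and 15.9 CPM to 27.3, 23.4 and 25.7 CPM (0.71 ± 0.21; edgeR adjusted p = 0.0403). Every TBI library was above both untreated ones, and its call held in 6 of 14 other settings. It was lost without any single library other than TBI replicate 1, at adjusted p from 0.0566 (without TBI replicate 2) to 0.30 (without untreated replicate 1). Mvd also missed the threshold with library size alone (adjusted p = 0.115), with upper quartile scaling (0.0504), with no filter on low counts (0.0618) and with the replicate number as a block (0.0939).

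Idi1, the isopentenyl isomerase, was at 5.80 and 8.09 CPM before and 4.05, 3.29 and 4.18 CPM after (adjusted p = 0.146). Fdps (chr3:89093588-89101959), which makes farnesyl diphosphate for sterols, ubiquinone and protein prenylation, fell from 84.5 and 91.9 CPM to 54.2, 42.7 and 34.6 CPM, 2.01-fold lower (-1.01 ± 0.20; edgeR adjusted p = 0.00873). The highest TBI library was well below the lowest untreated one. Fdps was called in 12 of 14 other settings, not without untreated replicate 1 (adjusted p = 0.0555) or untreated replicate 2 (0.0897).

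The committed sterol pathway starts with squalene. Fdft1, squalene synthase, had 20.4 and 20.6 CPM before and 22.5, 13.2 and 13.1 CPM after (-0.34 ± 0.29; adjusted p = 0.450), with TBI replicate 1 above the untreated libraries and the other TBI libraries below them. Without TBI replicate 1 its log2 fold change was -0.64 (adjusted p = 0.0381). Sqle (chr15:59315077-59331192), squalene monooxygenase, a rate-limiting step of the committed sterol pathway, had the lowest log2 fold change of the 30. It stood at 57.9 and 57.3 CPM before and 25.6, 24.8 and 18.2 CPM after TBI, 2.52-fold lower (-1.33 ± 0.20; edgeR adjusted p = 0.00212). Untreated libraries were nearly equal and each TBI library was far below them. Sqle and Srebf2 were the members called in all 14 other settings, with log2 fold changes of -1.56 to -1.19 and -1.24 to -0.95.

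Lss, which cyclises oxidosqualene to lanosterol, had 21.5 and 19.1 CPM before and 7.80, 9.75 and 17.0 CPM after (-0.81 ± 0.33; adjusted p = 0.120). TBI replicate 3 was close to the untreated level, and without it the log2 fold change was -1.20 (adjusted p = 0.0222). Cyp51, the lanosterol demethylase, fell from 89.5 and 103 CPM to 72.0, 58.2 and 59.9 CPM (-0.60 ± 0.16; edgeR adjusted p = 0.0296). Its groups did not overlap, and its call was lost without untreated replicate 1 (adjusted p = 0.134), untreated replicate 2 (0.316), TBI replicate 2 (0.0956) or TBI replicate 3 (0.0735), and with the replicate block (0.0852).

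Several later enzymes did not pass. Tm7sf2, a sterol reductase, was at 2.47 and 3.03 CPM before and 6.79, 2.91 and 3.66 CPM after (adjusted p = 0.398). Msmo1, which starts the removal of methyl groups from the sterol ring, had 47.0 and 54.7 CPM before and 53.5, 51.5 and 43.0 CPM after (-0.045 ± 0.18; adjusted p = 0.883). Nsdhl, the dehydrogenase of the same process, had 26.9 and 33.0 CPM before and 39.2, 16.7 and 32.4 CPM after (-0.028 ± 0.34; adjusted p = 0.963). The TBI libraries of Nsdhl lay on both sides of the untreated ones, so its standard error was among the larger ones. Hsd17b7, the ketosteroid reductase that completes demethylation, had 10.1 CPM in both untreated libraries and 5.78, 6.96 and 4.57 CPM after TBI, without overlap (-0.81 ± 0.32; adjusted p = 0.105).

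Ebp, the sterol isomerase, rose from 64.8 and 68.3 CPM to 105, 99.7 and 90.5 CPM (0.56 ± 0.15; edgeR adjusted p = 0.0261). The lowest TBI library was above the highest untreated one. Its call was lost without untreated replicate 1 (adjusted p = 0.261), untreated replicate 2 (0.201) or TBI replicate 2 (0.0754), and with library size alone (0.111), where its log2 fold change was 0.33. Sc5d, the next desaturase, had 47.5 and 61.3 CPM before and 32.4, 31.4 and 41.5 CPM after (-0.63 ± 0.21; adjusted p = 0.0606). Sc5d passed in 6 of 14 other settings. Dhcr7, the last reductase before cholesterol, had 42.8 and 52.8 CPM before and 39.3, 28.9 and 32.9 CPM after (-0.51 ± 0.20; adjusted p = 0.114). Stard4, a cytosolic sterol carrier, had 12.96 and 15.5 CPM before and 11.1, 8.99 and 12.8 CPM after (adjusted p = 0.345). Sc5d, Dhcr7 and Stard4 each had TBI libraries below both untreated ones.

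Counted over the sterol branch, 14 genes had a negative and 5 a positive log2 fold change. At an unadjusted p under 0.05 there were 9 lower and 2 higher of 19, where 16.5% of all genes tested were lower and 19.2% higher. TBI libraries lay below both untreated ones for 11 genes (57.9%), against 28.3% of all genes tested. The summed CPM of the branch was 656 and 746 before and 584, 508 and 520 after TBI. Without TBI replicate 1, 8 sterol genes were called lower, with Pmvk, Fdft1, Sc5d and Dhcr7 added. Genes called lower over all tested went from 1179 to 1780 in the same fit.

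In the fatty acid branch 1 of 6 genes rose (16.7%, near the 13.3% of all genes called higher), none fell and 5 did not pass. Acly, ATP citrate lyase, which releases cytosolic acetyl-CoA for both fatty acids and sterols, rose from 277 and 258 CPM to 360.2, 543 and 541 CPM, a 1.80-fold higher level (0.85 ± 0.19; edgeR adjusted p = 0.0149). It was the most abundant member per length in both groups, at 50.6 RPKM before and 91.2 RPKM after TBI. TBI replicate 1 was the lowest TBI library, and all 3 were above both untreated ones. Acly was not called without untreated replicate 1 (adjusted p = 0.0775), untreated replicate 2 (0.116) or TBI replicate 2 (0.0600), or with library size alone (0.0521).

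Acaca, acetyl-CoA carboxylase, which commits acetyl-CoA to fatty acids, was the least abundant member per length at 0.274 RPKM before TBI, with 36 and 39 counts before and 69, 60 and 38 counts after. In CPM its groups did not overlap, at 4.44 and 4.93 against 9.97, 7.60 and 4.96, but TBI replicate 3 was next to the untreated level (adjusted p = 0.266). Fasn, fatty acid synthase, had 95.3 and 107 CPM before and 45.7, 70.3 and 77.6 CPM after TBI, without overlap (-0.64 ± 0.22; adjusted p = 0.0730). Elovl6, which extends palmitate, had 8.88 and 13.3 CPM before and 20.5, 14.2 and 11.1 CPM after (adjusted p = 0.363). Acly and Fasn thus had fold changes of opposite sign, and the difference between them was not tested.

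The stearoyl-CoA desaturases make monounsaturated fatty acids. Scd2 was the more abundant of the pair in untreated cells, at 36.9 RPKM against 7.70 RPKM for Scd1. Scd2 had 178 and 225 CPM before and 104, 158 and 141 CPM after TBI, without overlap and short of the threshold (-0.58 ± 0.19; adjusted p = 0.0648). Scd1 had 34.7 and 40.7 CPM before and 38.6, 48.8 and 37.2 CPM after, with overlap (0.14 ± 0.20; adjusted p = 0.661). Both genes lie on chromosome 19 (GRCm38, Scd2 at 44293674 to 44306864 and Scd1 at 44394455 to 44407879) and are similar in sequence, so reads may have been shared between them. At an unadjusted p under 0.05, 2 of 6 fatty acid genes were lower (Fasn and Scd2), where 16.5% of all genes tested were. DESeq2 and the fit without TBI replicate 1 also called those 2, and limma-voom called none lower. The summed CPM of the branch was 598 and 648 before and 579, 842 and 813 after, most of it Acly and Scd2.

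**Figure D4:**
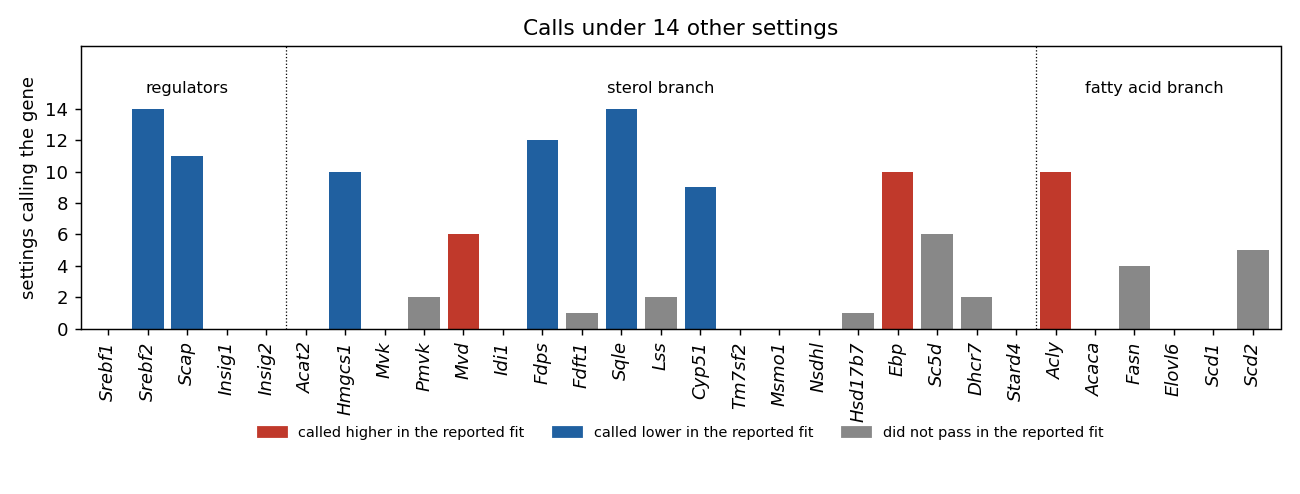
Number of 14 other settings (scalings, filters, tests, the replicate block and each library left out) in which each gene had an adjusted p under 0.05, coloured by its call in the reported fit. Srebf2 and Sqle reach 14, Fdps 12, Scap 11, Hmgcs1, Ebp and Acly 10, Cyp51 9 and Mvd 6, and among genes that did not pass Sc5d reaches 6 and Scd2 5.

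Other genes of the same pathway were read from lists of the pathway, not of the members. Among genes of sterol handling outside the 30, values are given for Ch25h, Tmem97 and Npc2, all of which rose, and they do not stand for their list. Ch25h, which makes 25-hydroxycholesterol, a sterol that blocks SREBP processing, had 0 and 5 counts before and 46, 53 and 90 counts after TBI (edgeR adjusted p = 0.00486). All of its untreated counts came from replicate 2, and the call held in all 14 other settings. Tmem97, a membrane protein of sterol handling, had 14.8 and 15.17 CPM before and 41.3, 23.7 and 26.2 CPM after (1.02 ± 0.28; adjusted p = 0.0339). Npc2, which carries cholesterol out of lysosomes, had 372 and 359 CPM before and 567, 525 and 493 CPM after (0.53 ± 0.12; adjusted p = 0.0165). Each had all TBI libraries above both untreated ones, and Tmem97 and Npc2 were named after their values were seen. Without untreated replicate 1 and without untreated replicate 2, Tmem97 (adjusted p = 0.199 and 0.190) and Npc2 (0.137 and 0.184) lost their calls, as Npc2 did without TBI replicate 2 (0.0552). With library size alone both missed the threshold, Tmem97 at 0.0679 and Npc2 at 0.0791.

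Of 11 tested genes for SREBP cleavage and for protein turnover at the endoplasmic reticulum, 1 rose, 1 fell and 9 did not pass. Calls made up 18.2% of these 11, against 23.1% of all genes tested. Erlin1, a membrane protein of the endoplasmic reticulum that restrains SREBP processing, fell from 170.4 and 177 CPM to 59.4, 84.2 and 73.1 CPM (-1.27 ± 0.17; edgeR adjusted p = 0.000993). Pgrmc1, a haem-binding membrane protein that binds INSIG and SCAP, rose from 81.2 and 85.0 CPM to 112, 118 and 122 CPM (0.50 ± 0.13; adjusted p = 0.0303) and kept its call in 8 of 14 other settings, losing it when any library other than TBI replicate 1 was left out.

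Among 21 tested genes of fatty acid and glycerolipid metabolism and its control outside the 30, 4 rose, 1 fell and 16 did not pass. Calls made up 23.8% of this list, near the 23.1% of all genes tested. Fads2, the desaturase of polyunsaturated fatty acids and an SREBP target, fell from 29.6 and 35.4 CPM to 5.35, 7.85 and 8.36 CPM (-2.17 ± 0.26; edgeR adjusted p = 0.000556). Mlxipl, which encodes ChREBP, the carbohydrate-responsive factor that drives lipogenic genes, had 2 and 0 counts before and 70, 78 and 71 counts after TBI. The ratio of its pooled counts (219 to 2), TBI to untreated, divided by the ratio of the groups' TMM-scaled library sizes, was 78.0, with a 95% exact counting interval of 21.3 to 648, which covers counting error only. Elovl1, a fatty acid elongase, rose from 93.2 and 89.0 CPM to 179, 161 and 140.1 CPM (0.81 ± 0.15). Elovl7 (2.83 ± 0.58) also rose, from 5 and 6 counts before TBI to 32, 31 and 49 after. So did Agpat2 (1.15 ± 0.27), an acyltransferase of glycerolipid synthesis, which was added to the named genes after its value was seen. Of 14 other settings, Mlxipl was called in all 14, Elovl1 and Elovl7 in 12 each and Agpat2 in 11. Elovl1, Elovl7 and Agpat2 lost their calls when either untreated library was left out. Agpat2 also missed the threshold without TBI replicate 2 (edgeR adjusted p = 0.0539). Without untreated replicate 1 or untreated replicate 2, this list had 1 higher gene, and without TBI replicate 1 or TBI replicate 2 it had 2 lower genes.

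The liver X receptors (LXR) respond to oxysterols and oppose SREBP2 by raising sterol efflux. Of 11 listed LXR genes, receptors and targets, 4 rose (Apoe, Pltp, Lpl and Abca1), none fell by edgeR (0 also at an unadjusted p under 0.05) and 7 did not pass. Genes called higher made up 36.4% of the list, against 13.3% of all genes tested. The 30 members were not in this list, so the share leaves out any LXR targets among them. Lpl rose from 52.8 and 44.1 CPM to 865, 776 and 803 CPM (4.07 ± 0.16; edgeR adjusted p = 3.23e-06). Abca1, the cholesterol exporter, rose from 24.8 and 29.8 CPM to 77.6, 146 and 169.9 CPM (2.27 ± 0.33; adjusted p = 0.00162). The exporter Abcg1 did not pass (0.064 ± 0.14; edgeR adjusted p = 0.778), nor did the receptor genes Nr1h2 and Nr1h3. Abca1, Abcg1 and the receptors were named after their values were seen. Apoe, Pltp, Lpl and Abca1 are also expressed by macrophages, whose markers rose in these libraries as given above, and the part of those cells was not tested.

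Genes of cell division, whose products are high in dividing cells, were listed for comparison. Of 10 proliferation genes 1 (Mki67, -0.77 ± 0.19; edgeR adjusted p = 0.0216) fell, none rose and 9 did not pass, with 4 higher and 2 lower at an unadjusted p under 0.05. Genes called lower made up 10% of this list, near the 9.79% of all genes tested. The lower count was 0 when any library other than TBI replicate 1 was left out, and without that one there were 2 higher and 2 lower. The summed level of the 10 was 1046 to 1049.9 CPM before and 1091 to 1261 CPM after TBI.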

How the data were processed

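The deposited table gives raw counts (whole numbers) for each gene symbol. Per the submitters' processing notes, the authors used STAR 2.5.2a, featureCounts 1.6.0 and the mm10 build. The annotation, strand setting and handling of multiply mapped reads are not given in the sources used here. The libraries were made with a PCR kit for low RNA input without molecular identifiers, so floors and intervals cover counting error only. The protocol text names the TBI samples by another day than titles and tags, which give day 4 and were used. Members and lists were chosen with earlier results of these data known.

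The test was edgeR 4.0.16 (R 4.3.3), with TMM scaling, filterByExpr (minimum count 10, total 15), group as the only term, Benjamini-Hochberg over 12046 genes at 0.05. Alternatives used DESeq2 1.42.0, limma 3.58.1 and other scalings, filters and libraries. Self-tests were run on simulated data. All 30 members are named, and from each other pathway list up to 3 called genes per direction with the smallest p; exceptions are said in the text. RPKM used exon-union lengths of GENCODE (GRCm38). The table holds 23 symbols that a spreadsheet turned into dates, none of them named. Some genes of the list on sterol synthesis and handling, and the counts over that list, are not reported here. Of the listed genes Ufd1 and Ighm had no row under those symbols. Figures were drawn with matplotlib 3.10.9.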

Additional observations from a re-analysis of the deposited data

How the results depend on the processing

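Srebf2 and Sqle kept their direction and their call under all 14 alternatives. Library size alone shifted the median of all genes to -0.23 (from -0.0054) and left 36.8% of all calls higher (from 57.6%). It gave 2129 lower genes among all tested, 12 lower members, 8 lower sterol genes, 2 lower fatty acid genes and 0 members higher, so 0 sterol and 0 fatty acid genes higher. Sterol genes called higher numbered 1 with upper quartile scaling, with no filter on low counts and with the replicate block. Fatty acid genes called lower numbered 1 with upper quartile scaling, 2 with the DESeq2 Wald test and 2 with the replicate block.

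With 1 library left out, all genes called higher ran from 810 to 2148 and lower from 423 to 1780, members higher from 0 to 3 and lower from 2 to 12, regulators lower from 1 to 2, sterol genes higher from 0 to 2 and lower from 1 to 8, and fatty acid genes higher from 0 to 1 and lower from 0 to 2. Where 1 untreated library remained, its spread was taken from the TBI libraries. The highest counts of lower genes came without TBI replicate 1.

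Values that changed sign were all of genes that did not pass: with library size alone Insig2 (-0.11) and Scd1 (-0.087), and with the replicate block Msmo1 (0.049). With 1 library left out, Msmo1 ran from -0.15 to 0.069, Nsdhl from -0.29 to 0.26 and Srebf1 from -0.11 to 0.023. The cause was not tested.

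Same-numbered libraries did not deviate together from their group means (correlations of -0.016 and -0.011 for the 2 pairs). With 2 untreated libraries the deviations of one mirror those of the other, so the 2 correlations are not independent. They cannot tell whether same-numbered libraries shared a pool or a batch. The replicate block gave 2 members higher and 9 lower, against 3 and 6. TBI replicate 3 has no untreated library of its number, so under the block it adds nothing to the fold changes. The block is therefore close to the fit without that library (Lss -1.21 and -1.20), and the 2 settings are not independent. Paralog ratios kept their sign with a pseudocount of 5, with the replicate block and with any library left out. Precision is limited by 2 untreated libraries, and by counts under 70 in each library for Acaca, Idi1 and Tm7sf2.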
